A study of Mus musculus with 6 samples.

Results

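The genes described here are members of the BCL2 family, which sets the threshold for the mitochondrial route of apoptosis, and Cflar, which encodes an inhibitor of the caspase that death receptors switch on. They were chosen by name as Bcl2, Bcl2l1, Mcl1 and Cflar, which favour survival, and Bcl2l11, Bid, Bax and Pmaip1, which promote death, and every probe annotated to them was taken. The annotation held 15 such probes for 7 of the 8 genes, among 16281 probes in all, and the RNA of Bax was not analysed here. Survival proteins of the family hold their death promoting relatives in check at the mitochondrial membrane, and small proteins with only a BH3 domain, such as the products of Bcl2l11, Bid and Pmaip1, release that restraint. In macrophages, LPS starts NF-kappaB signalling, which is known to induce several survival genes.

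RNA of mouse RAW 264.7 cells, an established macrophage line transformed by a leukaemia virus, was compared after treatment for 1 h with lipopolysaccharide (LPS, 100 ng/ml) and lipopolysaccharide-binding protein (LBP, 100 pM) and without treatment. Each of 6 arrays carried both RNAs in different dyes, and the treated RNA was in Cy5 on 3 arrays and in Cy3 on the other 3. Within each dye orientation the arrays are numbered as sets 1, 2 and 3, and parts of the labels write the line of the treated cells as RAW 264.4. Whether sets are separate cultures is not stated, so the p-values reflect the scatter between these samples alone, which may be technical. Values below are log2 ratios of treated over untreated RNA, so that 1 is a doubling. A mean is over 3 set averages with their SD, and a gene or probe was called at an adjusted p under 0.05 (limma over 8331 genes or 11442 probes, Benjamini-Hochberg). The Cy5 sample is named as the test in the labels, so the deposited ratio is likely Cy5 over Cy3, and all signs would turn with the other numerator. With this direction Tnf, a cytokine gene, rose by 2.44 ± 0.19, Nfkbiz, a gene of an NF-kappaB regulator, by 3.72 ± 0.17 and Egr1, an immediate early gene, by 5.13 ± 0.16 (n = 3 sets, adjusted p = 1.46e-05, 3.54e-06 and 1.18e-06). A ratio holds no level, so the labelled cell type could not be checked by marker levels: among genes fixed as markers, 1 of 7 macrophage genes tested (Adgre1, 0.55 ± 0.11), 2 of 5 lymphocyte genes (Cd4, 0.47 ± 0.21, and Cd79a, 0.20 ± 0.06) and 0 of 1 fibroblast or epithelial genes (also 0 at an unadjusted p under 0.05) were called, against 13.2% of all genes, and their part in the results below was not tested. In total RNA of a culture, a change in the share of cells that express a gene and a change of RNA per cell cannot be told apart.

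Of the 7 member genes tested, 3 rose and 3 fell, while 6.96% of all genes rose and 6.21% fell. Each direction held survival and death promoting genes. Cflar, Mcl1 and Bcl2l11 rose at least to a doubling, and Bcl2, Bid and Pmaip1 fell by much smaller amounts. All 7 had the same sign on all 6 arrays, as did 19.1% of all genes. Since the members were named with results of these data known, these shares are a description. By mean ratio, Cflar ranked 26, Bcl2l11 51 and Mcl1 71 from the top of 8331 genes. Pmaip1 ranked 117 and Bid 284 from the bottom, with Bcl2 at 517. The median of all genes tested was -0.01 and the median absolute ratio was 0.07.

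**Figure D1:**
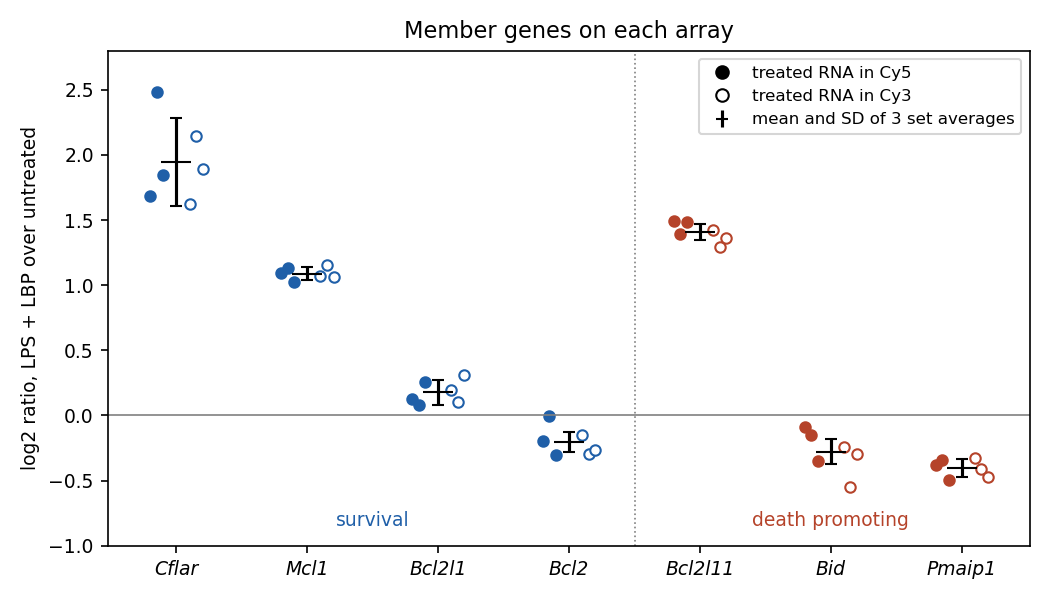
Log2 ratio of treated over untreated RNA (vertical axis) for the 7 member genes on each array. Filled points are arrays with treated RNA in Cy5, open points arrays with treated RNA in Cy3, and bars the mean and SD of 3 set averages. Cflar, Mcl1 and Bcl2l11 lie between 1.02 and 2.48 on every array, and the other 4 genes between -0.55 and 0.31.

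Among the survival genes, Cflar changed most. It encodes cFLIP, which binds the caspase of the death receptor complex and stops its activation. Its probe, annotated to Y14041, gave, for sets 1, 2 and 3, ratios of 1.68, 2.48 and 1.85 where Cy5 marked the treated RNA and of 1.62, 2.14 and 1.89 where Cy3 did. Set 2 gave the highest ratio in either orientation, and the lowest of the 6 was 1.62. The mean was 1.95 ± 0.34, or 3.85-fold (n = 3, adjusted p = 0.000223), and 1.76 without set 2. This SD was the widest among the 7 genes.

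Mcl1 encodes a short-lived survival protein that myeloid cells are known to depend on. Its probe annotated to NM_008562 gave 1.09, 1.13 and 1.02 in Cy5 and 1.07, 1.16 and 1.06 in Cy3. The 6 values lay within a narrow band, and those of the dye orientations overlapped. The mean was 1.09 ± 0.05, or 2.13-fold (n = 3, adjusted p = 3.76e-05). The other Mcl1 probe, annotated to U35623, had a ratio only on the arrays of set 3, where it gave 1.20 in Cy5 and 1.25 in Cy3, and was listed at 0 on the other 4. With those zeros kept as ratios, Mcl1 averaged 0.75 and was not called (adjusted p = 0.106).

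Bcl2l1 encodes BCL-XL and its splice forms, and its 4 probes did not move together. Probe 6297, annotated to U51279, gave 0.54, 0.84 and 0.43 in Cy5 and 0.14, 0.37 and 0.49 in Cy3. All were positive, and the mean of 0.47 ± 0.13 was called (n = 3, adjusted p = 0.00524), though not with treated RNA in Cy3 alone (0.33, adjusted p = 0.0897) or with zeros kept (adjusted p = 0.0927). Probe 15184, annotated to L35049, ran between -0.31 and 0.97, with both set 3 arrays highest and both set 2 arrays lowest. Its mean was 0.41 ± 0.51 (n = 3, adjusted p = 0.201), and without set 2 it was called at 0.66 (adjusted p = 0.0309), in a fit that called 8.1% of probes. Probe 18458, annotated to NM_009743, stayed between -0.08 and 0.07 on the 6 arrays (mean -0.01 ± 0.06, n = 3, adjusted p = 0.896).

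The remaining Bcl2l1 probe, 12034, annotated to U51277, gave -0.46, -0.61 and -0.37 in Cy5 and 0.21, 0.44 and -0.12 in Cy3. The orientations did not overlap and mostly disagreed in sign, so its mean of -0.15 ± 0.08 (n = 3, adjusted p = 0.117) has no settled direction. With Cy5 alone it was called at -0.48 (adjusted p = 0.0163, where 11.7% of probes were called), and with Cy3 alone it averaged 0.18 (adjusted p = 0.377). As the mean of its 4 probes, Bcl2l1 gave 0.18 ± 0.10 with a 95% interval of 0.06 to 0.30 and was not called (n = 3, adjusted p = 0.0718). A fit of the 6 single arrays with a dye term called it at the same value (adjusted p = 0.0275), in a setting where 17.3% of genes were called. That fit counts the arrays of a set as independent, though they may be a dye swap of the same RNA. Which transcript forms the probes detect is not given in the sources used here.

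Bcl2, the founding survival gene of the family, was slightly lower in treated cells. Probe 7997 gave -0.26, -0.04 and -0.38 in Cy5 and -0.32, -0.36 and -0.32 in Cy3, and was called at -0.28 ± 0.08 (n = 3, adjusted p = 0.0145), though not without set 1 (-0.28, adjusted p = 0.11). Probe 15338, annotated to the same accession, NM_009741, ran between -0.23 and 0.03, with a value just above 0 on 2 arrays, and was not called (-0.13 ± 0.08, adjusted p = 0.172). Their average fell by 0.20 ± 0.07, or 1.15-fold (n = 3, adjusted p = 0.0376). The call was lost without any set (-0.22, -0.23 and -0.16 without sets 1, 2 and 3, adjusted p = 0.152, 0.053 and 0.115) and under either orientation alone (-0.17 in Cy5 and -0.24 in Cy3).

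Among the death promoters, Bcl2l11 stood opposite to the others. It encodes BIM, a BH3-only protein that can bind every major survival protein of the family. Probe 16195, annotated to AF032459, gave 1.70, 1.62 and 1.78 in Cy5 and 1.44, 1.37 and 1.40 in Cy3. Probe 16715, annotated to NM_009754, gave 1.30, 1.17 and 1.18 in Cy5 and 1.42, 1.22 and 1.32 in Cy3. The first probe was higher in every Cy5 array than in any Cy3 array, and the other was not. Both were called, at 1.55 ± 0.05 and 1.27 ± 0.08 (n = 3, adjusted p = 1.54e-05 and 4.24e-05). The gene rose by 1.41 ± 0.06, or 2.65-fold (adjusted p = 1.46e-05), and stayed between 1.36 and 1.46 over 12 alternatives, each of which called it.

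Pmaip1 encodes NOXA, a BH3-only protein that preferentially binds MCL1. Probe 4316, annotated to AB041230, gave -0.44, -0.36 and -0.49 in Cy5 and -0.25, -0.33 and -0.41 in Cy3. Probe 6008, annotated to NM_021451, gave -0.32, -0.32 and -0.50 in Cy5 and -0.40, -0.50 and -0.53 in Cy3. Every one of these values was below 0, and the probes were called at -0.38 ± 0.06 and -0.43 ± 0.08 (n = 3, adjusted p = 0.00383 and 0.00323). Pmaip1 fell by 0.40 ± 0.07, or 1.32-fold (adjusted p = 0.00288), and was called under each of 12 alternatives at values from -0.44 to -0.36.

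Bid encodes a BH3-only protein that the caspase of the death receptor complex cleaves, which links receptors to mitochondria. Probe 6606, annotated to U75506, gave -0.10, -0.12 and -0.12 in Cy5 and -0.34, -0.35 and -0.36 in Cy3. The arrays of each orientation lay close together, and the orientations did not overlap. Probe 18548, annotated to NM_007544, was far wider, with -0.08, -0.18 and -0.57 in Cy5 and -0.15, -0.74 and -0.23 in Cy3. Both were called, at -0.23 ± 0.01 and -0.33 ± 0.19 (n = 3, adjusted p = 0.0158 and 0.0409). Probe 6606 was not called without set 1 (-0.24) or set 2 (-0.23), nor probe 18548 without set 2 (-0.26) or set 3 (-0.29). From single arrays, probe 18548 was not called without a block (adjusted p = 0.0636) or with the set as a random block (adjusted p = 0.0788). Bid fell by 0.28 ± 0.10, or 1.21-fold (adjusted p = 0.0174), but was not called without set 2 (-0.24, adjusted p = 0.0505), without set 3 (-0.26, adjusted p = 0.0595), or in Cy5 alone (-0.20, adjusted p = 0.12) or Cy3 alone (-0.36, adjusted p = 0.0614).

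**Figure D2:**
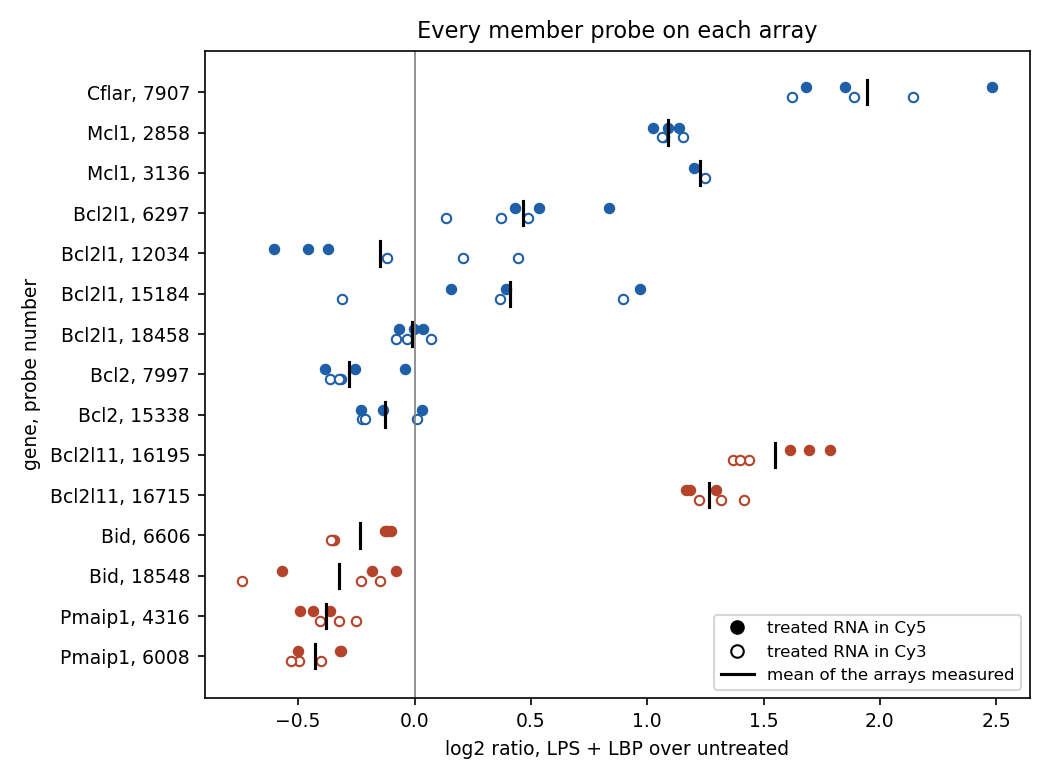
Log2 ratio of treated over untreated RNA (horizontal axis) for each of the 15 member probes (vertical axis, gene and probe number). Filled points are arrays with treated RNA in Cy5, open points arrays with treated RNA in Cy3, and black lines the mean of the arrays measured. The 4 Bcl2l1 probes spread from -0.61 to 0.97, while the probes of Cflar, Mcl1, Bcl2l11, Bid and Pmaip1 each stay on the same side of 0.

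Over the 14 member probes with a ratio on all arrays, 10 were called, 5 higher and 5 lower, where 12.5% of all probes were called (6.85% higher and 5.63% lower). The orientations did not overlap for 3 of these 14, which were Bcl2l11 probe 16195, Bid probe 6606 and Bcl2l1 probe 12034, and for 36.1% of all probes. Of these 14 probes, 10 had the same sign on all 6 arrays, as did 18.9% of all probes. No member probe passed the test of a dye effect on the unturned averages (limma, 0 of 14, with 3 at an unadjusted p under 0.05), and 0.0524% of all probes passed it. Since so few probes passed at all, 0 of 14 does not show the absence of a dye effect.

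Under 12 alternatives Cflar, Bcl2l11 and Pmaip1 were called in each, and Mcl1 in all but the fit with zeros kept. In that fit the Cflar probe (adjusted p = 0.053) and both Pmaip1 probes (adjusted p = 0.0513 and 0.0598) were not called at the level of probes. Beside the share of all genes called, the members called were 3 of 7 with zeros kept (4.88%) and 4 of 7 with incomplete probes included (6.3%), with treated RNA in Cy5 alone (12.4%) and in Cy3 alone (7.79%). They were 5 of 7 with quantile normalization (11.2%), and 6 of 7 with arrays centred on their medians (12.8%) or with the median of a gene's probes (13.1%). Without set 1 they were 5 (5.99%), without set 2 they were 4 (9.97%) and without set 3 they were 4 (9.99%). All 7 were called from single arrays, without a block (17.3%), where arrays of a set count as independent, and with the set as a random block (16.1%). Of the 14 probes, 4 were called with zeros kept (3.21% of all probes), 7 with incomplete probes included (5.8%), 8 with Cy5 alone (11.7%) and 8 with Cy3 alone (7.32%). They were 10 with centred arrays (12.4%) and 10 with quantile normalization (10.9%), 9 from single arrays without a block (16.2%) and 9 with the random block (15.1%). Without sets 1, 2 and 3 they were 8 (5.43%), 9 (8.1%) and 9 (10.9%).

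**Figure D3:**
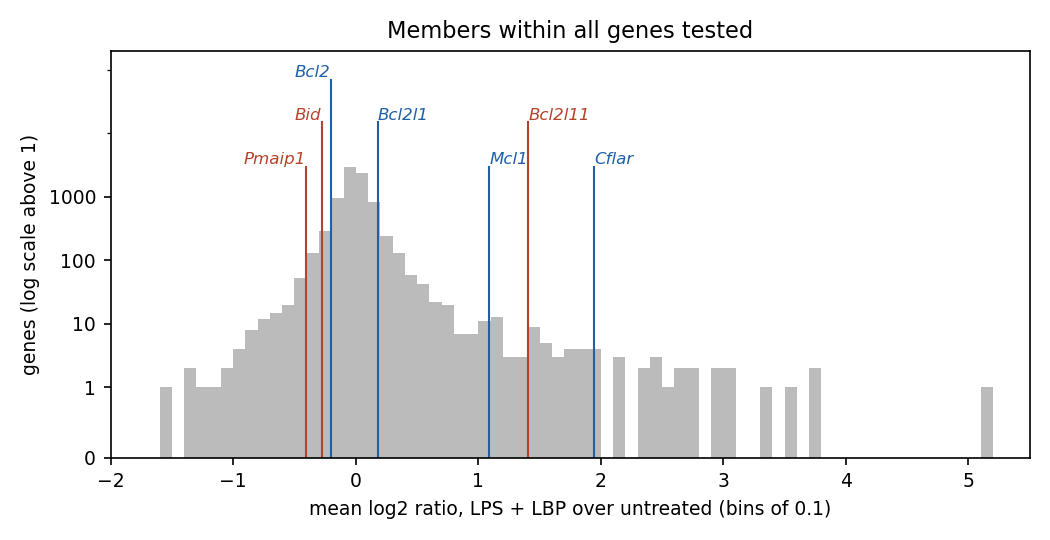
Number of genes (vertical axis, log scale above 1) by mean log2 ratio of treated over untreated RNA (horizontal axis, bins of 0.1) for the 8331 genes tested, with lines at the members, survival genes in blue and death promoting genes in red. Cflar (1.95), Bcl2l11 (1.41) and Mcl1 (1.09) lie in the thin right tail, and Bcl2 (-0.20), Bid (-0.28) and Pmaip1 (-0.40) on the left flank of the main peak.

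Set against each other on each array, the survival genes averaged 0.68, 0.92 and 0.71 in Cy5 and 0.68, 0.78 and 0.75 in Cy3, while the death promoting genes averaged 0.34, 0.30 and 0.21 in Cy5 and 0.28, 0.11 and 0.20 in Cy3. The survival average was the higher on all 6 arrays, by 0.33 to 0.67. This difference of 0.51 ± 0.14 (n = 3) rested on few genes. It was 1.09 without Bcl2l11 and 0.11 without Cflar, and in the last case it ran from -0.0018 to 0.21 over the arrays. No test is given for these averages, because the members were chosen with results known, and Bax is not in them.

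Genes whose products act on the same routes to death moved unequally. The ratio of Mcl1 exceeded that of Pmaip1, whose product binds it, by 1.40 to 1.57 on the 6 arrays (mean 1.49 ± 0.05, n = 3). Against Bcl2l11 the ratio of Mcl1 was lower on all 6 arrays, with differences from -0.46 to -0.14 (mean -0.32 ± 0.10). In the death receptor branch, the ratio of Cflar exceeded that of Bid by 1.77 to 2.69 (mean 2.22 ± 0.42). These are differences between log2 ratios of separate probes, so they compare changes and not amounts of RNA.

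**Figure D4:**
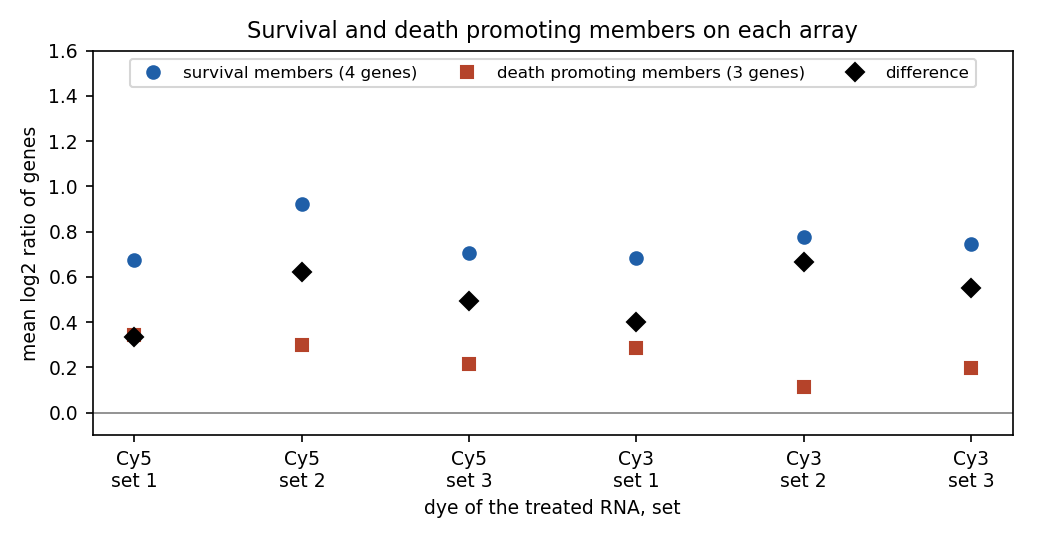
Mean log2 ratio of treated over untreated RNA (vertical axis) over 4 survival genes (blue circles) and 3 death promoting genes (red squares) on each array (horizontal axis, dye of the treated RNA and set), with their difference as black diamonds. The survival average is above the death promoting average on all 6 arrays, with differences from 0.33 to 0.67.

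The promoters of the 3 genes that rose are shown because all 3 genes were higher in treated cells on all 6 arrays, by unequal amounts. Each window runs from 250 bases before to 50 after a start site and is written on the gene's strand (RefSeq, GRCm38.p6). The Cflar window is chr1:58711241-58711540, that of Mcl1 is chr3:95658471-95658770 and that of the upstream of 2 starts of Bcl2l11 is chr2:128125788-128126087, all on the plus strand. Capitals mark TATAAA, the GC box GGGCGG and the FOXO motif GTAAACA on either strand.
Cflar: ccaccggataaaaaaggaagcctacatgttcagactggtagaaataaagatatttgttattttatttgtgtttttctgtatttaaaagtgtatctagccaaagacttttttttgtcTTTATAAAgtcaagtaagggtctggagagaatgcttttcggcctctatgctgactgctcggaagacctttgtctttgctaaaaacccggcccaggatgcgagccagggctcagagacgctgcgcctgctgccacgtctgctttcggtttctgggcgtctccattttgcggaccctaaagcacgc
Mcl1: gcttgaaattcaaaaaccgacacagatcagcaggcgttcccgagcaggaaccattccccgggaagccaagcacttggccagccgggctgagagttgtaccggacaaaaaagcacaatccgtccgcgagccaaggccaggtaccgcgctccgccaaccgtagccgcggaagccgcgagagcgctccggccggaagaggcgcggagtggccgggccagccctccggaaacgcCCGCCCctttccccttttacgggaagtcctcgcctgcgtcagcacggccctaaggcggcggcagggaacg
Bcl2l11: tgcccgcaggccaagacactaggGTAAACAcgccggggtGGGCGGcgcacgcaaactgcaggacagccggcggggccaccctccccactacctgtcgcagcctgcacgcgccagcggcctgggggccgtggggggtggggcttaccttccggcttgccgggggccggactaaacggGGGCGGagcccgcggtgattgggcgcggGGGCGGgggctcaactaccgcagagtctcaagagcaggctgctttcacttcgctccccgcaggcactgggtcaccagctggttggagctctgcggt
The windows differ in base composition, with 45% G and C for Cflar, 65.7% for Mcl1 and 71% for Bcl2l11, and a median of 52.7% over 32851 windows of the table. Cflar held TATAAA on both strands at overlapping places, with first bases at -134 and -132 from the start, a motif found in 13.6% of all windows. Mcl1 held 1 GC box and Bcl2l11 held 3, as at least 1 did in 35.7% of windows. GTAAACA, which FOXO factors bind, occurred in the Bcl2l11 window at -227 and in 3.65% of all windows.

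A search of 10 windows, for the starts of Bcl2, Bcl2l1, Mcl1, Cflar, Bcl2l11, Bid and Bax, covered also the NF-kappaB consensus, the CArG box of serum response factor, the cyclic AMP element TGACGTCA and the AP-1 site TGANTCA, each on both strands. The NF-kappaB consensus was found in 1 window, that of a Bcl2l1 start, against 4.51% of all windows, and not in those of Cflar, Mcl1 or Bcl2l11. The CArG box, TGACGTCA and TGANTCA were in none of the 10, against 1.63%, 1.79% and 7.81% of all windows. GC boxes were also in the windows of Bcl2 (7) and Bid (3), which fell, and of Bax (3), whose RNA was not measured here, while Pmaip1 was not searched. A match is only a run of letters, and its absence from these windows says nothing about sites elsewhere.

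Other cell death genes were taken from 7 lists that were chosen with earlier results known. Of 61 genes tested, 12 rose and 2 fell (23% called, against 13.2% of all genes), and their median of -0.0023 was close to that of all genes. Among other survival genes of the BCL2 family, 3 of 5 rose and 0 fell, with a median of 0.67. These were the A1 copies Bcl2a1d (0.68 ± 0.11), Bcl2a1c (0.68 ± 0.14) and Bcl2a1a (0.67 ± 0.13, adjusted p = 0.000694, 0.0011 and 0.00114), known NF-kappaB targets. The copies are near-identical in sequence, so their probes may share transcripts and are uncertain as separate genes. Bcl2a1b, named after its value was seen, ran from -1.52 to 1.37 over the arrays and was not called (0.19 ± 0.23, adjusted p = 0.23). With incomplete probes included, Bcl2a1c averaged 0.25 and was not called (adjusted p = 0.209).

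None of 7 other death promoting genes of the family was called, against 13.2% of all genes (limma, 1 at an unadjusted p under 0.05). Their values ran from -0.15 to 0.24 with a median of -0.01. Bbc3, which encodes the BH3-only protein PUMA and was named after its value was seen, stood at -0.07 ± 0.04 (adjusted p = 0.362). Bak1, named likewise and encoding a pore former like BAX, stood at 0.24 ± 0.35 (adjusted p = 0.275). Of the 10 death promoting genes of the family tested, members included, 1 rose (Bcl2l11) and 2 fell (Bid and Pmaip1). Among all genes 6.96% rose and 6.21% fell, and with so few genes these counts are a description. Bik, a BH3-only gene named after its value was seen and without a ratio on some arrays, was not among the 10, and with incomplete probes included it was called at 0.51 over 2 sets (adjusted p = 0.0295).

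Of 6 genes for inhibitor of apoptosis proteins, 2 rose and 0 fell (33.3% called, against 13.2% of all genes), with a median of 0.05. Birc3, whose product cIAP2 acts in TNF receptor signalling, gave 1.61, 1.52 and 1.51 in Cy5 and 1.94, 1.93 and 1.75 in Cy3 and rose by 1.71 ± 0.07 (adjusted p = 9.35e-06). Its relative Birc2 rose by 0.22 ± 0.03 (adjusted p = 0.0185) and was not called without set 1 (0.21) or set 2 (0.21). Of 8 caspase genes, Casp4, an inflammatory caspase that senses cytosolic LPS, rose by 0.21 ± 0.08 (adjusted p = 0.0381) and 0 fell, with a median of -0.05. The share of caspase genes called, 12.5%, was no higher than the 13.2% of all genes. The call of Casp4 was lost without set 1 (0.20) or set 2 (0.17).

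Of 10 death receptor, ligand and adaptor genes, 2 rose and 1 fell (30% called, against 13.2% of all genes), with a median of 0.03. The death receptor gene Fas rose by 1.16 ± 0.15 (adjusted p = 0.000141), and Tnfrsf1b, a TNF receptor gene without a death domain, by 0.26 ± 0.03 (adjusted p = 0.00928), with the call lost without set 1 (0.27). Tnfrsf25, a death receptor gene, fell by 0.26 ± 0.09 (adjusted p = 0.0204) and was not called without any set (-0.30, -0.21 and -0.26). Of 13 apoptosome and mitochondrial release genes, 0 rose and Dffb, a nuclease of DNA fragmentation, fell by 0.33 ± 0.04 (adjusted p = 0.0043). The share of this list called, 7.69%, was below the 13.2% of all genes. Dffb kept its call with any 1 set left out, but not with treated RNA in Cy5 alone (limma, -0.23, adjusted p = 0.122). Of 12 regulators of BCL2 family abundance, 4 rose and 0 fell (33.3% called, against 13.2% of all genes). Their median was 0.10, against -0.05 for the apoptosome list. Mdm2, a ligase that restrains p53, rose by 1.20 ± 0.15, and Ddit3, a stress factor known to induce Bcl2l11, by 1.01 ± 0.06 (adjusted p = 0.00012 and 5.01e-05). Bag3, a co-chaperone that binds BCL2, rose by 0.27 ± 0.10 and the p53 regulator Mdm4 by 0.21 ± 0.05 (adjusted p = 0.021 and 0.0242). Bag3 was not called without set 1 (0.28) or set 3 (0.22), nor Mdm4 without any set (0.23, 0.19 and 0.22).

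**Figure D5:**
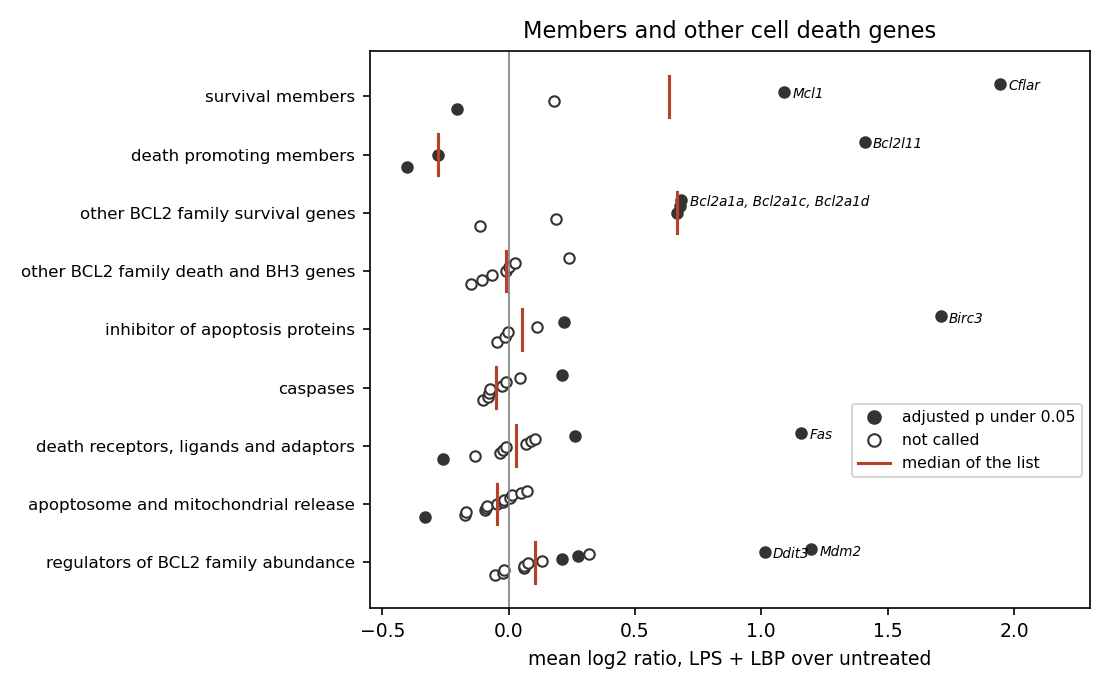
Mean log2 ratio of treated over untreated RNA (horizontal axis) for each tested gene of the member lists and of 7 other cell death lists (vertical axis). Filled points were called, open points were not, and red lines are list medians; called genes above 0.5 are named, and most other genes lie near 0.

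By the smallest root mean square difference over the 6 arrays, the genes most like Cflar were Ier2 (difference 0.20) and Tnfsf9 (0.22), those most like Mcl1 were Chka (0.07) and Tnfrsf12a (0.08), and those most like Bcl2l11 were Peli1 (0.12) and Plk2 (0.15). Pmaip1 was nearest to Napsa (0.05) and Stc2 (0.06), and Bid to Fam131a (0.05) and Lpcat1 (0.08). Bcl2 was nearest to Mat2b (0.05) and Cyp4f41-ps (0.05), and Bcl2l1 to Diaph3 (0.03) and Acvr2a (0.04). All 6 arrays repeat a single comparison, so this likeness is mainly one of mean ratio.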

How the data were processed

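Per the labels, 6 dual-channel arrays compared treated with untreated RAW 264.7 RNA. Each array has 1 deposited value per probe for 16281 probes, a log2 ratio of its channels. The values themselves show the base: 99.7% to 99.9% of non-zero values per array are 6-digit log10 numbers divided by log10 of 2 (relative tolerance 1e-13). The authors' background correction and normalization are not given in the sources used here, intensities were not used here, and array medians lay between 0.0043 and 0.016. Values of arrays whose treated RNA was in Cy3 were multiplied by -1. An exact 0 (8.99% to 23.9% of values per array) was taken as missing. Turned arrays correlated at r = 0.15 to 0.81, with the lowest value between the arrays of set 2. These arrays also had the most zeros, 17.7% in Cy5 and 23.9% in Cy3, against at most 12.1% on the others. Symbols came from the platform annotation. Probes with 1 symbol and 6 ratios were averaged by symbol to 8331 genes. The arrays of a set were averaged and the 3 averages tested against 0 with limma 3.58.1 (R 4.3.3), two-sided, with 2 residual and 4.08 prior degrees of freedom. The unturned averages were tested likewise for dye effects. Precision is limited by the number of arrays. The fit was tested on simulated set averages, drawn independently and without dye effects or missing values, so that test does not cover these features. The members, lists and rule for named genes were chosen with earlier results of these data known. The rule names all members, up to 4 called genes of largest absolute ratio per list, Tnf, Egr1 and Nfkbiz, and the 2 nearest genes of each member. Alternatives are given in the closing section.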

Additional observations from a re-analysis of the deposited data

How the results depend on the processing

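Of 84 values of the 7 member genes under 12 alternatives, 67 kept their direction and side of the threshold, 15 lost the call, 2 gained it and 0 reversed, and of 372 values of 31 other named genes 310, 58, 4 and 0 did. Of 154 values of 14 member probes these counts were 129, 21, 2 and 2. The reversals were Bcl2l1 probe 12034 with treated RNA in Cy3 alone (0.18) and Bcl2l1 probe 18458 without set 2 (-0.045 to 0.019 over the 3 sets left out), neither called in the main setting. The cause was not tested. Zeros kept as ratios, with all probes, gave 522 genes, 522 probes, 9 other cell death genes, 3 members (Cflar, Bcl2l11 and Pmaip1) and 0 probes with a dye effect (limma). Incomplete probes included gave 646 genes, 854 probes, 9 other cell death genes and 39 dye effects, and treated RNA in Cy3 alone gave 649 genes, 837 probes and 9 other cell death genes. The main counts were 1097 genes, 1428 probes, 14 other cell death genes, 6 members and 6 dye effects. Leaving out a set, which leaves 2 averages, gave 499 to 832 genes, 621 to 1245 probes, 8 to 13 other cell death genes, 4 to 5 members and 0 to 35 dye effects, with the lowest gene, probe and other cell death counts without set 1. Arrays that share a set number correlated at r = 0.0056, -0.26 and -0.06 after removal of orientation means. No pairing by number was seen, but noise of single arrays could hide it, so these values do not exclude pairing. The SD over set averages can be smaller than that between arrays. Single arrays with a dye term and no replicate block gave 1439 genes, 1859 probes, 14 other cell death genes and 7 members, and 1340, 1725, 14 and 7 with the set as a random replicate block (correlation 0.08).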

Other observations

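Some cell death genes had no probe with a ratio on all 6 arrays and were absent from the counts above. With incomplete probes included, a setting that called 6.3% of 10260 genes, the survival gene Bcl2l10 averaged -0.28 over 3 sets (limma, adjusted p = 0.262), the death ligand gene Tnfsf10 0.18 over 3 sets (adjusted p = 0.484), the p53 relative Trp73 0.20 over 3 sets (adjusted p = 0.456) and the death ligand gene Fasl 0.0008 over 2 sets (adjusted p = 0.997). All 4 were named after their values were seen.

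Probe 15184 of Bcl2l1 and the genes Bak1 and Ywhae, named after their values were seen, shared an order of arrays. Bak1 gave 0.18, 0.05 and 0.64 in Cy5 and 0.15, -0.19 and 0.61 in Cy3, and Ywhae, a 14-3-3 protein gene, gave 0.22, 0.15 and 0.88 in Cy5 and 0.13, -0.17 and 0.69 in Cy3. Set 3 was highest and set 2 lowest in either orientation, as for the Bcl2l1 probe, and neither gene was called. The same order held for Tnfrsf1a, Usp9x, Foxo3 and Bag3 of the lists, so it is not particular to these genes. How many of all genes show it was not counted.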
